A study of Mus musculus with 69 samples.

Results

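CXC chemokines are small secreted proteins that steer leukocytes along concentration gradients. Those that carry a Glu-Leu-Arg motif, such as Cxcl1, Cxcl2 and Cxcl5, act on the receptor Cxcr2 and draw neutrophils, and epithelial cells and macrophages of the lung make them after NF-kB is activated. Cxcl9, Cxcl10 and Cxcl11 are induced by interferons and act on Cxcr3, a receptor of activated T and NK cells. Cxcl13 draws B cells into lymphoid aggregates, Cxcl12 acts on Cxcr4 and holds leukocytes in bone marrow and stroma, and Cxcl14 is made mainly by epithelium.

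The genes described here are 10 CXC chemokine genes and receptors, Cxcl1, Cxcl2, Cxcl5, Cxcl9, Cxcl10, Cxcl11, Cxcl13, Cxcl12, Cxcl14 and Cxcr3. They were chosen by name, with earlier results of these data known, and matched to array probes through the probes' transcript accessions. Of these, 9 genes had a probe, with 10 probes among the 41174 on the array, and they are 9 of the 18749 genes tested. No probe accession matched Cxcl11, which was not analysed here. Cxcl12 had 2 probes and each other gene had 1.

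Lungs came from female C57BL/6 mice that were 5 to 7 weeks old on arrival and had 1 to 3 weeks of acclimatisation. They received a single dose of 18, 54 or 162 µg of NRCWE-025 or NRCWE-030, both nanosized titanium dioxide (nano-TiO2), dispersed in water with 2% serum, or the vehicle alone. Whole lung was taken 1 day or 28 days after exposure, which gave 14 groups and 69 arrays, 1 mouse each, with 5 arrays a group apart from 162 µg of NRCWE-025 on day 28, which had 4. The 5 vehicle mice of a day served as controls for both materials, so the comparisons of NRCWE-025 and NRCWE-030 with vehicle on the same day share them.

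Each array set lung RNA, labelled with Cy5, against Universal Mouse Reference RNA, a pool from mouse cell lines, labelled with Cy3. A level below is log2 of lung over reference, and a difference of 1 is a doubling. Levels of different genes cannot be set against each other, because the reference holds a different amount of each transcript. The share of spots that stood well above background in Cy5 was 49.1% on the dimmest array and 72.8% on the brightest. Heart muscle genes varied widely between vehicle mice of day 1, with array means between 0.63 and 4.73 on the log2 scale. The source of this RNA and its part in the results were not tested. In whole lung, fewer cells of a type and less RNA per cell cannot be told apart.

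The probes of Cxcl10, Cxcl14 and Cxcr3 were above background in lung RNA on all 69 arrays. The Cxcl13 probe was above background on 62 arrays, Cxcl5 on 50, Cxcl9 on 45 and Cxcl1 on 43. For Cxcl9 and Cxcl13 the reference itself was dim, above background on 1 array each, so the size of their ratios leans on the background correction. The Cxcl2 probe was above background on only 4 of 69 lung arrays and on no vehicle array.

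The sequences before the starts of Cxcl10 and Cxcl9, the called genes of the set, and of Cxcl1 and Cxcl2, the neutrophil-type pair, are shown because inducible transcription of these chemokines is set there. They are the 250 bases before the start, from RefSeq on GRCm38.p6, and 8 of the 10 genes had an entry. The array's own probe positions are on mm9, and no coordinate below was taken from it. Capitals mark matches, on either strand, to the NF-kB motif or to the ISRE (bound by interferon-activated factors, searched as 2 copies of TTTC with any 2 bases between them). The NF-kB motif was searched as GGGRNNYYCC, with R for A or G, Y for C or T and N for any base.
Cxcl10 (chr5:92348890-92349139, minus strand): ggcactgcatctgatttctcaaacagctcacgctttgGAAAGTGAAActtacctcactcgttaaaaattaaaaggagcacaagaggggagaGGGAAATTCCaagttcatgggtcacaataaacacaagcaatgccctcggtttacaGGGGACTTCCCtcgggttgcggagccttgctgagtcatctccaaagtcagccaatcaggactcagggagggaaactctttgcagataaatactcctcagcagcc
Cxcl9 (chr5:92328080-92328329, minus strand): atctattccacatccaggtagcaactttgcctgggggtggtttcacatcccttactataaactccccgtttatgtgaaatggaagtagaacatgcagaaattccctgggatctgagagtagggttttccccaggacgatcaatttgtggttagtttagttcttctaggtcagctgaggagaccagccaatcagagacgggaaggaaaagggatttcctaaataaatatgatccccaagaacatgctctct
Cxcl1 (chr5:90890995-90891244, plus strand): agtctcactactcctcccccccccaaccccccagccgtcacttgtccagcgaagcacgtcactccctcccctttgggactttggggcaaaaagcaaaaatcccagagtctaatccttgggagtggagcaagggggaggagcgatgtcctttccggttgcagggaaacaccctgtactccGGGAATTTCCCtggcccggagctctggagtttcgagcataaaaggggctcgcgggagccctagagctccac
Cxcl2 (chr5:90903649-90903898, plus strand): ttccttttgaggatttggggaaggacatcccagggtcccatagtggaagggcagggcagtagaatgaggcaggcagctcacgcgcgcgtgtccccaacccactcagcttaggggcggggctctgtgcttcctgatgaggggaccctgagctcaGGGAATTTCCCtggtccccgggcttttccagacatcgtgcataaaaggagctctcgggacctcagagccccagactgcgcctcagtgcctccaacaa
In Cxcl10 the run of capitals nearest to the 5′ end is the ISRE match and the other runs are NF-kB matches, the last of which holds 2 overlapping matches. Cxcl1 and Cxcl2 each held 2 overlapping NF-kB matches in 1 run, and the Cxcl9 window held no match to either motif. Over 32841 promoter windows of the same length, 7.25% held the NF-kB motif and 2.98% the ISRE. Another motif searched, GAS (TTCNNNGAA), was held by 7.02% of them and by none of the windows shown. Of the windows not shown, Cxcl14 held 1 ISRE and 1 GAS match, and Cxcl13, Cxcl12 and Cxcr3 held no match to any of these motifs. A match describes the letters and says nothing about use of the site. A window without a match can still hold a site, because only these fixed letter patterns were searched.

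Cxcl9 and Cxcl10 rose 1 day after 162 µg of NRCWE-030. They were the only 2 of the 9 genes called by limma at an adjusted p under 0.05 in that comparison, in which 1.74% of all genes were called and 1.25% were called higher. The interferon-type genes are described before the neutrophil-type genes because of this.

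Cxcl10, which draws Cxcr3-bearing T cells, had levels of -0.95, -1.67, -1.17, -1.35 and -1.51 in the 5 vehicle mice of day 1. In the high-dose NRCWE-030 group its levels were 2.61, 2.37, 1.78, -0.57 and 0.73. All 5 exposed mice lay above all vehicle mice, as for 2.91% of all genes, with replicate 4 well below the other exposed mice. The difference was 2.71 ± 0.56 (SE) on the log2 scale, a 6.56-fold increase (95% interval 1.53 to 3.89 on the log2 scale, limma adjusted p = 0.0167). Without replicate 2 of that exposed group the difference was 2.47 and the adjusted p 0.0586.

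Cxcl9, induced mainly by interferon gamma, had levels of 0.15, 0.38, 0.13, 0.36 and -0.01 in the vehicle mice of day 1. In exposed mice of the high NRCWE-030 dose they were 1.67, 1.11, 1.35, 0.88 and 0.94. The groups did not overlap, and the 5 exposed mice spread less than they did for Cxcl10. The difference was 0.99 ± 0.19 (SE), a 1.98-fold increase (limma adjusted p = 0.00901). The probe was above background in lung on 3 of the vehicle arrays and on all 5 of the exposed group. Over all genes, 2.91% had every exposed mouse above every vehicle mouse in this comparison.

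The means of both genes were higher at each higher dose of NRCWE-030 on day 1, and the lower doses were not called (0.08% of all genes were called at 54 µg and 0.00533% at 18 µg). At 54 µg the Cxcl10 levels were -0.82, -1.43, 1.29, -0.88 and 1.60, with 2 mice far above the other 3, and the difference from vehicle was 1.28 ± 0.56 (SE, adjusted p = 0.515). The same 2 mice, replicates 3 and 5, were the high ones for Cxcl9, at 1.18 and 1.20, and the Cxcl9 difference was 0.45 ± 0.19 (SE, adjusted p = 0.471). At 18 µg the differences were 0.50 for Cxcl10 and 0.12 for Cxcl9. The Cxcl9 probe was above background in lung on 1 of 5 arrays at 18 µg and on 3 of 5 at 54 µg. The dose order of Cxcl9 thus rests on dim spots at its low end. In the test over the 3 doses together, in which 0.965% of all genes were called, Cxcl9 was called (adjusted p = 0.0284) and Cxcl10 was not (adjusted p = 0.0574). That call of Cxcl9 was lost without replicate 1 or 5 of the vehicle mice, or without replicate 1, 2 or 3 of the 162 µg group, and it was lost with the authors' log2 values.

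Arrays shared glass slides and scan days. With slide as a fixed block, the Cxcl10 difference at 162 µg of NRCWE-030 on day 1 was 3.20 and the Cxcl9 difference 1.01, and neither was called (adjusted p = 0.113 and 0.15, with 8 residual degrees of freedom in place of 16). With scan day as the block the differences were 2.77 and 0.97 (adjusted p = 0.255 and 0.186). With slide as a random block both were called (adjusted p = 0.00876 for Cxcl10 and 0.006 for Cxcl9). The 2 slides that held both a vehicle and a high-dose mouse gave Cxcl10 differences of 3.96 and 3.28 and Cxcl9 differences of 1.31 and 1.36. Both differences were larger within these slides than across all arrays. The slides held exposed replicates 1 and 3, the mice with the highest Cxcl9 levels of the group, and replicate 1 also had the highest Cxcl10 level. On a scan day with 2 high-dose mice and 1 vehicle mouse they were 2.11 for Cxcl10 and 1.13 for Cxcl9. From the scanner software's own log ratio the Cxcl9 difference was 2.55 (adjusted p = 0.0452), against 0.99 here, so its size depends on how the dim signals were corrected.

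**Figure D1:**
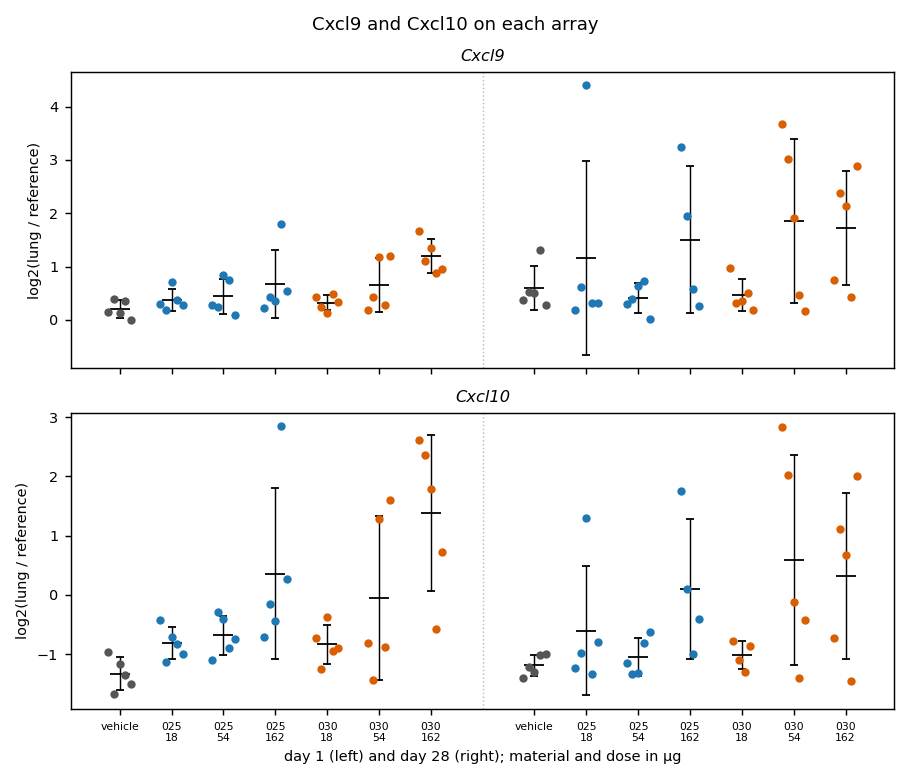
Levels of Cxcl9 and Cxcl10, as log2 of lung over reference (vertical axes), on each array of the 14 groups, day 1 on the left and day 28 on the right, with points for mice, and bars for the mean and SD (n = 5, or 4 for 162 µg of NRCWE-025 on day 28 and for Cxcl10 at 18 µg of NRCWE-030 on day 28). On day 1 the 5 mice given 162 µg of NRCWE-030 lay above all vehicle mice for both genes, and on day 28 most exposed groups held mice far above the rest.

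After 162 µg of NRCWE-025 on day 1, Cxcl10 levels were -0.71, -0.16, -0.44, 2.84 and 0.27. All 5 lay above all vehicle mice, as for 0.875% of all genes, and replicate 4 stood far above the other 4. The difference was 1.69 ± 0.44 (SE, adjusted p = 0.105), and without that replicate it was 1.07. In this comparison 0.213% of all genes were called and none of the 9. Cxcl9 was at 1.80 in the same replicate 4 and between 0.23 and 0.54 in the others, with a difference of 0.47 ± 0.22 (SE, adjusted p = 0.407). At 18 and 54 µg of NRCWE-025 the Cxcl10 differences were 0.51 and 0.65, and 3 and 4 of 5 mice lay above all vehicle mice.

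The contrast of the materials at 162 µg on day 1, NRCWE-030 minus NRCWE-025, was 1.02 for Cxcl10 (95% interval -0.21 to 2.25, adjusted p = 0.851) and 0.52 for Cxcl9 (-0.50 to 1.54, adjusted p = 0.91). limma called none of the 9 genes between materials in the test over doses on either day, where 0.155% of all genes were called on day 1 and 0.24% on day 28. The call of Cxcl9 and Cxcl10 for NRCWE-030 and not for NRCWE-025 is thus not shown to be a difference between materials, and the intervals do not show that the materials act alike.

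On day 28 some exposed mice had high levels of both interferon-type genes and others of the same group did not. The vehicle mice of that day had Cxcl10 levels of -1.40, -1.21, -1.30, -1.01 and -1.003. At 54 µg of NRCWE-030 the levels were 2.83, 2.03, -0.11, -1.40 and -0.43, and the difference was 1.77 ± 0.66 (SE, adjusted p = 0.629). Replicates 1 and 2 carried most of that mean, while replicate 4 was level with the lowest vehicle mice. At 162 µg of NRCWE-030 the levels were -0.73, 1.12, 0.67, -1.46 and 2.00, a difference of 1.51 ± 0.66 (SE, adjusted p = 0.631).

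Cxcl9 was high in the same mice. Its levels at 54 µg of NRCWE-030 were 3.67, 3.01, 1.91, 0.47 and 0.17, against 0.38, 0.52, 0.51, 1.31 and 0.29 in vehicle mice of day 28. At 162 µg they were 0.75, 2.39, 2.13, 0.43 and 2.88. In each of these groups 3 of 5 mice lay above all vehicle mice. The differences were 1.25 ± 0.55 and 1.11 ± 0.55 (SE, adjusted p = 0.746 and 0.674).

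The slide block moved the 54 µg comparison the other way. With slide as a fixed block Cxcl9 differed by 2.36 ± 0.46 (SE, adjusted p = 0.0492) and Cxcl5 by 2.87 ± 0.50 (SE, adjusted p = 0.0381), and both were called, among 92 genes called in all. With scan day as the block only Cxcl5 was called (2.88, adjusted p = 0.0481), among 17 genes in all. In the fit without a block 0.0533% of all genes were called at 54 µg of NRCWE-030 on day 28 and none of the 9 genes. On the 3 slides that held both a vehicle mouse and a mouse of this group, the Cxcl9 differences were 3.29, 2.50 and 1.63 and the Cxcl5 differences 2.89, 3.04 and 2.82. The other 2 mice of the group, replicates 4 and 5, which had the lowest Cxcl9 and Cxcl5 levels, lay on slides and scan days without a vehicle mouse of that day. Replicate 5 shared its slide with no other array of that fit, and replicate 4 shared its slide with a mouse given 162 µg, through which it stayed in the blocked fit.

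After NRCWE-025, day 28 showed the same kind of spread. The highest Cxcl9 level of the series, 4.39, was replicate 3 of 18 µg, where the other 4 mice lay between 0.18 and 0.61. At 162 µg the 4 mice had Cxcl9 levels of 3.25, 1.94, 0.57 and 0.26 and Cxcl10 levels of 1.75, 0.10, -1.004 and -0.41. The Cxcl10 difference was 1.29 ± 0.48 (SE, adjusted p = 0.584).

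The SD of Cxcl10 was 0.28 and 0.18 in the vehicle groups of days 1 and 28 and reached 1.77 in exposed mice, at 54 µg of NRCWE-030 on day 28. The Cxcl9 SD was between 0.17 and 0.41 in vehicle groups and reached 1.81, at 18 µg of NRCWE-025 on day 28. Of the 30 exposed mice of day 1, 16 had Cxcl9 above all vehicle mice and 25 had Cxcl10 above them, and 15 mice had both, 93.8% of the first set and 60% of the second. On day 28, of 28 exposed mice with both values, 9 were above all vehicle mice for Cxcl9 and 18 for Cxcl10, and all 9 were among the 18. The Cxcl9 counts include arrays on which its probe was not above background in lung.

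Across arrays Cxcl9 and Cxcl10 had a Pearson r of 0.88 on day 1 (35 arrays) and 0.91 on day 28 (33 arrays), and 0.76 with the days pooled (68 arrays). The arrays of the 2 days lay along different lines, with lower Cxcl10 for a given Cxcl9 on day 28. With each group's mean removed, r was 0.80. These values are descriptions, since both genes are read from the same array.

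**Figure D2:**
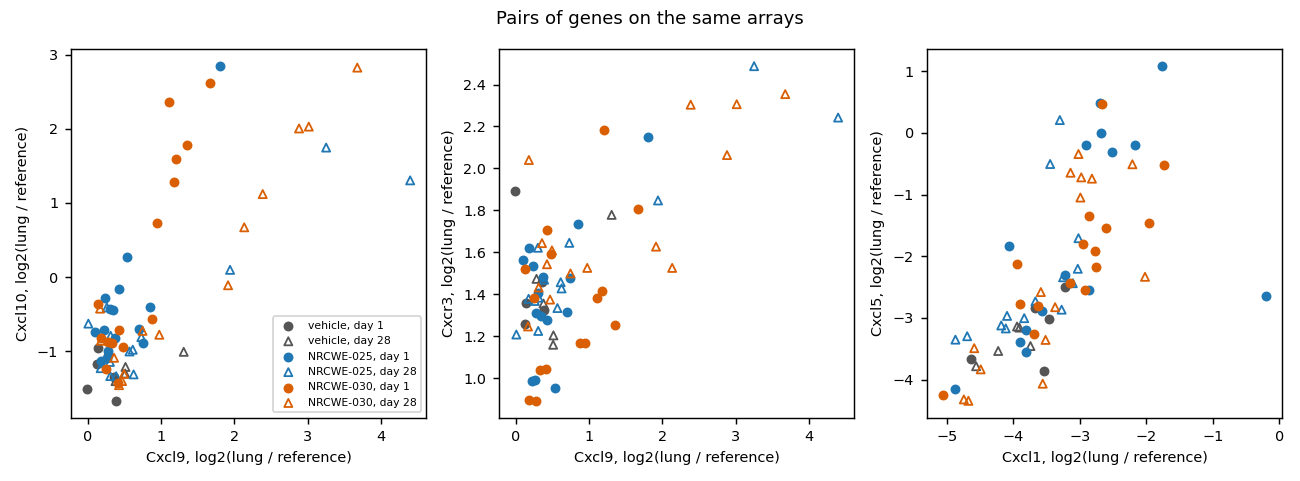
Levels of Cxcl9 and Cxcl10, Cxcl9 and Cxcr3, and Cxcl1 and Cxcl5 (log2 of lung over reference on both axes), with 1 point per array, filled circles for day 1 and open triangles for day 28, and colours for vehicle and the 2 materials. Mice with high Cxcl9 had high Cxcl10 on both days, along separate lines, whereas high Cxcl9 went with high Cxcr3 mainly on day 28.

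Cxcr3, the receptor for Cxcl9 and Cxcl10, was not called on either day. Its levels were 1.36, 1.32, 1.26, 1.46 and 1.89 in vehicle mice and 1.81, 1.38, 1.25, 1.17 and 1.17 after 162 µg of NRCWE-030. The groups overlapped, and the difference was -0.10 ± 0.21 (SE, 95% interval -0.54 to 0.33, adjusted p = 0.919). On day 28 it was higher by 0.39 ± 0.21 at both 54 and 162 µg of NRCWE-030 (SE, adjusted p = 0.81 and 0.708), with 2 of 5 mice above all vehicle mice in each group. At 162 µg of NRCWE-025 the Cxcr3 levels were 2.49, 1.85, 1.33 and 1.37, and the first 2 of these mice were also those with high Cxcl9. The r of Cxcl9 with Cxcr3 was 0.40 on day 1 and 0.84 on day 28 (35 and 34 arrays). With the days pooled and each group's mean removed, r with Cxcr3 was 0.73 for Cxcl9 and 0.77 for Cxcl10. On day 1, 2 exposed mice had Cxcr3 above all vehicle mice, and both were among the 16 with such Cxcl9. On day 28 it was 7 of 8 mice, and 9 had such Cxcl9.

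Of 17 measured marker genes of T and NK cells, none was called after 162 µg of NRCWE-030 on day 1, beside 1.74% of all genes. Of these 17, 10 had a higher mean than in vehicle mice. Their mean over the list ran from 1.105 to 1.60 in the vehicle mice of day 1 and from 1.23 to 1.33 in that exposed group, on the log2 scale. On day 28 at 54 µg of NRCWE-030 the list was at 1.71 and 1.55 in replicates 1 and 2, the mice with the highest Cxcl9, and between 1.12 and 1.33 in the other 3. In vehicle mice of day 28 it ran from 1.18 to 1.60. The part of these cells in the Cxcl9, Cxcl10 and Cxcr3 values was not tested.

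Among the neutrophil-type ligands, Cxcl5 and Cxcl1 had large differences from vehicle that did not pass the test. Cxcl5, made by alveolar epithelium, was highest on day 1 at the middle dose of NRCWE-025. Its levels there were 0.49, 0.00, 1.08, -1.83 and -2.31, against -2.50, -2.84, -3.87, -3.66 and -3.02 in vehicle mice. All 5 exposed mice lay above all vehicle mice, as for 0.544% of all genes, 3 of them at 0.00 or higher and the other 2 close to the vehicle mice. The difference was 2.66 ± 0.60 (SE, on the log2 scale), the unadjusted p 0.000254 and the adjusted p 0.227, in a comparison where 0% of all genes were called and 6.54% had an unadjusted p under 0.05. The Cxcl5 probe was above background in lung on 2 of the 5 vehicle arrays of day 1 and on all 5 of this group, so the size of the difference leans on the background correction.

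The Cxcl5 levels at 162 µg of NRCWE-025 on day 1 were -2.65, -2.55, -0.20, -0.19 and -0.30. Here 3 mice lay above all vehicle mice and 2 lay among them. The difference was 2.00 ± 0.60 (SE, adjusted p = 0.151). At 18 µg it was -0.26 ± 0.60, with no mouse above the vehicle mice. In the test over doses, in which 0.0213% of all genes were called, Cxcl5 had an adjusted p of 0.0887. With slide as a random block that test called Cxcl5 and Cxcl1. It also called Cxcl5 without replicate 1 of the 162 µg group or without replicate 5 of the 54 µg group.

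After NRCWE-030 on day 1 the Cxcl5 differences were 0.97, 1.08 and 1.38 at 18, 54 and 162 µg, each with an SE of 0.62 and none called. At 162 µg the levels were -0.52, -1.91, -1.55, -2.81 and -2.18, with 4 of 5 above all vehicle mice. On day 28 high and low mice stood side by side in the same group. Cxcl5 at 54 µg of NRCWE-030 was at -0.64, -0.74, -0.34, -4.07 and -3.36, and at 162 µg of NRCWE-025 at 0.21, -0.50, -3.35 and -2.34. The vehicle mice of that day lay between -3.78 and -3.14. The differences of these groups were 1.58 ± 0.71 and 1.92 ± 0.51 (SE, adjusted p = 0.747 and 0.375). At 54 µg of NRCWE-025 the 5 mice, between -3.12 and -2.20, all lay above the vehicle mice of day 28, as for 0.555% of all genes, and the difference was 0.67 ± 0.48 (SE, adjusted p = 0.792).

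Cxcl1, a Cxcr2 ligand that is an early response gene of many cell types, was highest on day 1 at 162 µg of NRCWE-025. Its levels were -0.20, -2.86, -2.91, -2.17 and -2.51, against -3.22, -3.68, -3.54, -4.63 and -3.46 in vehicle mice. The groups did not overlap, as for 0.875% of all genes in the upward direction, and replicate 1 stood far above the others. The Cxcl1 probe was above background on 2 of the 5 vehicle arrays of each day, so sizes lean on the background correction here too. In this exposed group it was above background on 4 of 5 arrays in lung and on 4 of 5 in the reference. Over the series the reference was above background for this probe on 68 of 69 arrays. Whether replicate 1 was the array with the dim spot is not given here. The difference was 1.58 ± 0.45 (SE, adjusted p = 0.135), and without replicate 1 it was 1.096. At 54 µg it was 0.82 and at 18 µg -0.29.

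The Cxcl1 levels on day 1 at 162 µg of NRCWE-030 were -1.74, -2.77, -2.61, -3.62 and -2.75. Of these, 4 lay above all vehicle mice. The difference was 1.01 ± 0.45 (SE, adjusted p = 0.335). On day 28 the largest Cxcl1 difference was at 54 µg of NRCWE-030, where all 5 mice, between -3.56 and -2.82, lay above the vehicle mice, which reached -3.74. It was 0.87 ± 0.44 (SE, adjusted p = 0.791), and 0.805% of all genes had every exposed mouse above every vehicle mouse.

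Cxcl1 and Cxcl5 were high in many of the same mice. On day 1, 18 of 30 exposed mice were above all vehicle mice for each gene and 15 for both, 83.3% of either set. On day 28, 19 of 29 were above for Cxcl1 and 20 for Cxcl5, with 17 for both, 89.5% and 85% of the sets. The counts of both genes include arrays on which the probe was not above background in lung. At 18 µg of NRCWE-025 on day 28 replicates 1, 4 and 5 were counted for Cxcl1. Its probe was above background on 1 of 5 arrays there. Across arrays r was 0.63 on day 1 and 0.72 on day 28. With the days pooled and each group's mean removed it was 0.60. Measured in the same way, Cxcl5 had r of 0.58 with Cxcl10 and 0.61 with Cxcl12. For Cxcl1 these were 0.37 and 0.50. High values in the same mice were thus not particular to this pair.

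The NRCWE-030 minus NRCWE-025 difference of Cxcl5 at 54 µg on day 1 was -1.58 (95% interval -2.97 to -0.20, adjusted p = 0.766). For Cxcl1 at 162 µg on day 1 it was -0.57 (-1.52 to 0.38, adjusted p = 0.886). On day 28 at 54 µg the differences in the same direction of subtraction were 1.44 for Cxcl9, 1.63 for Cxcl10 and 1.18 for Cxcl13 (adjusted p = 0.405, 0.464 and 0.563). These 4 contrasts, Cxcl5 on day 1 and Cxcl9, Cxcl10 and Cxcl13 on day 28, all at 54 µg, were the ones with an unadjusted p under 0.05 among the 54 contrasts of 9 genes between materials. Of all genes, 5.77% had such a p at 54 µg on day 1 and 7.88% at 54 µg on day 28, where 1 and 3 of the 9 genes did. At 18 µg the shares were 8.78% on day 1 and 6.65% on day 28, and at 162 µg they were 6.13% and 2.44%, and none of the 9 genes had such a p there.

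Cxcl2, the ligand most like Cxcl1, could not be followed in these lungs. Its levels lay between -0.41 and 0.22 on all arrays, and its differences from vehicle lay between -0.11 and 0.11. On day 1, 1 of 5 spots was above background at 162 µg of each material and no vehicle spot was, and no fold is given. A change of Cxcl2 was not detectable at this signal.

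**Figure D3:**
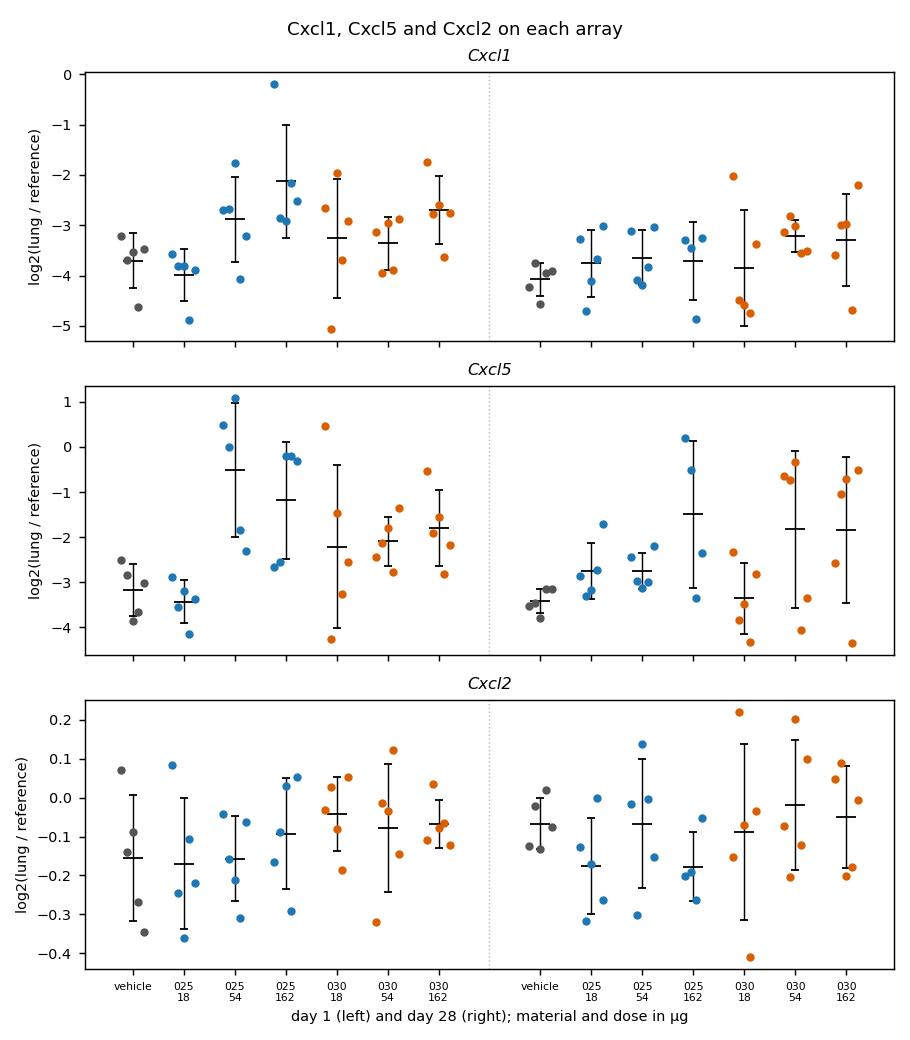
Levels of Cxcl1, Cxcl5 and Cxcl2, as log2 of lung over reference (vertical axes, each with its own range), on each array of the 14 groups, with points for mice and bars for the mean and SD. Cxcl5 at 54 µg of NRCWE-025 on day 1 lay between -2.31 and 1.08, above every vehicle mouse, and Cxcl2 stayed between -0.41 and 0.22 throughout.

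Neutrophil markers are given beside these genes. Of 15 measured neutrophil genes, 3 rose at 162 µg of NRCWE-030 on day 1, Csf3r by 1.25, Il1r2 by 1.36 and Trem1 by 0.60 on the log2 scale (adjusted p = 0.00264, 0.00112 and 0.0132). Of all genes, 1.25% were called higher in this comparison, and no other gene of the list was called. The mean over the list ran from 1.15 to 1.57 in vehicle mice and from 1.38 to 2.00 in exposed mice. After 162 µg of NRCWE-025 on day 1, where the means of Cxcl1 and Cxcl5 were above those after NRCWE-030, none of the 15 was called and the list mean of the exposed mice ran from 1.14 to 2.11. In that group S100a8, S100a9, Retnlg, Ltf and Stfa1 had lower means than in vehicle mice and the rest of the list had higher means, and 0.213% of all genes were called. Stfa2 was above background on no array of these 3 groups. On day 28 Mmp9, a granule protease, fell by 1.11 at 162 µg and by 0.96 at 54 µg of NRCWE-030 (adjusted p = 0.00291 and 0.0169). The shares of all genes called lower were 0.0373% and 0.0213%. No other gene of the 15 was called in these groups, and 2 had a higher mean than in vehicle mice in each. The list mean ran from 1.19 to 1.97 in vehicle mice of day 28 and from 1.08 to 1.52 at 162 µg of NRCWE-030, where Cxcl5 was at 1.57 and Cxcl1 at 0.79 above vehicle. The part of these cells in the chemokine values was not tested.

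Cxcl13, the B cell attractant, had its largest SD, 1.78, in the vehicle mice of day 28. Their levels were 1.15, 0.71, 1.64, 4.88 and 0.57, and replicate 4 had the highest Cxcl13 level of the series. On day 1 they were 0.21, 2.56, 0.42, 1.36 and 0.28. After 162 µg of NRCWE-030 on day 1 the levels were 3.18, 1.28, 1.56, 1.36 and 0.91, of which 1 lay above all vehicle mice, and the difference was 0.69 ± 0.41 (SE, adjusted p = 0.53). On day 28 the difference at that dose was -0.12 ± 0.66, and without the vehicle replicate at 4.88 it was 0.65. No Cxcl13 difference was called at any dose. Of 10 measured B cell genes, Cd22 fell by 0.39 at 162 µg of NRCWE-030 on day 1 (adjusted p = 0.0496), where 0.491% of all genes were called lower. The mean over that list ran from 0.48 to 1.03 in vehicle mice and from 0.39 to 0.70 in exposed mice, and the part of these cells in the Cxcl13 values was not tested.

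The 2 probes of Cxcl12 disagreed. The gene level, their median, had a mean of -0.97 in vehicle mice and -0.42 at 162 µg of NRCWE-030 on day 1, and the difference of 0.55 ± 0.20 (SE, adjusted p = 0.218) did not pass the test. The probe for NM_021704 had levels of -2.05, -3.005, -3.02, -2.92 and -2.92 in vehicle mice and -0.99, -1.51, -1.69, -1.87 and -1.48 in exposed mice. All 5 exposed mice lay above all vehicle mice. At the level of genes, 2.91% of all genes did so in this comparison. In a fit over the 27479 named probes, chosen after the probes were seen to differ, it was higher by 1.28 ± 0.23 (SE, adjusted p = 0.0087, with 1.32% of all probes called). The probe listed under NM_001012477 differed by -0.18 ± 0.21 (SE, adjusted p = 0.842) with overlapping groups. The difference between the probes was not itself tested, and which transcripts each probe can bind was not checked. After 162 µg of NRCWE-025 on day 1 the probe for NM_021704 was at 0.88 above vehicle (adjusted p = 0.186, with 0.116% of all probes called), and on day 28 the differences of both probes lay between -0.29 and 0.15 at all doses of both materials.

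Cxcl14, an epithelial chemokine, had its lowest mean where Cxcl10 had its highest. Its levels were 3.84, 3.77, 4.09, 4.01 and 3.66 in vehicle mice of day 1 and 3.58, 3.49, 3.57, 3.45 and 3.30 after 162 µg of NRCWE-030. All 5 exposed mice lay below all vehicle mice, as did 1.65% of all genes. The difference was -0.39 ± 0.12 (SE, 0.761-fold, unadjusted p = 0.0037, adjusted p = 0.106), and it was not called. On day 28 it was 0.07 ± 0.11 at that dose. Epithelial marker genes are given beside it. Of 12 measured, none was called at 162 µg of NRCWE-030 on day 1, beside 1.74% of all genes. Of these 12, 3 had a higher mean than in vehicle mice, and their median difference was -0.26. Their part in the Cxcl14 values was not tested.

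**Figure D4:**
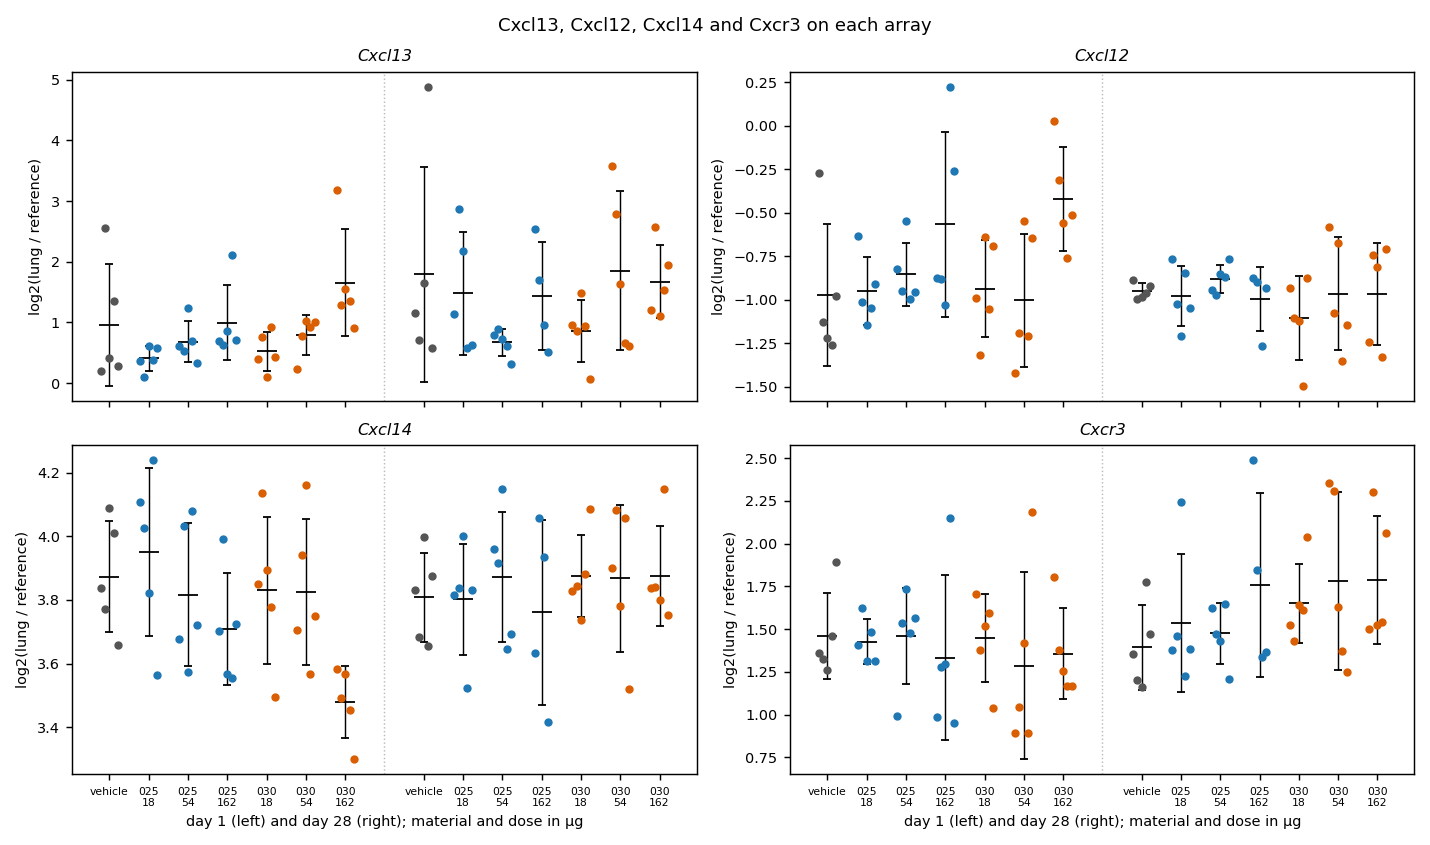
Levels of Cxcl13, Cxcl12, Cxcl14 and Cxcr3, as log2 of lung over reference (vertical axes, each with its own range), on each array of the 14 groups, with points for mice and bars for the mean and SD. The 5 Cxcl14 values at 162 µg of NRCWE-030 on day 1, between 3.30 and 3.58, lay below the vehicle mice, and a vehicle mouse of day 28 had the highest Cxcl13 level, 4.88.

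Each gene's 14 group means were put in order. For 8 of the 9 genes no step between neighbours in that order was larger than the larger SD of the 2 groups. The exception was Cxcl14, whose lowest group, 162 µg of NRCWE-030 on day 1, lay 0.23 below the next group against an SD of 0.18. Cxcl10 was highest at 162 µg of NRCWE-030 on day 1, with a mean of 1.38 ± 1.31 (SD, n = 5), and Cxcl9 at 54 µg of NRCWE-030 on day 28, with 1.85 ± 1.53. The means of Cxcl9 and Cxcl10 were lowest in the vehicle mice of day 1.

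Over all 9 genes, 7 had a higher mean than vehicle at 162 µg of either material on day 1, beside 51.3% of all genes for NRCWE-030 and 49.9% for NRCWE-025. The median difference was 0.69 after NRCWE-030 and 0.41 after NRCWE-025, beside 0.00437 and -0.000192 over all genes. At an unadjusted p under 0.05, 6 of 9 genes passed after NRCWE-030 and 3 of 9 after NRCWE-025, beside 12.9% and 12.3% of all genes. The 9 genes were chosen with earlier results of these data known and vary together. The counts and medians in this paragraph are therefore descriptions and no test of the set. On day 28 the medians at that dose were 0.39 after NRCWE-030 and 0.36 after NRCWE-025, and 2 of 9 genes passed for each material, beside 7.51% and 7.22% of all genes. At 54 µg the numbers that passed were 2 (NRCWE-030 on day 1, 8.77% of all genes), 3 (NRCWE-030 on day 28, 6.5%), 1 (NRCWE-025 on day 1, 6.54%) and 0 (NRCWE-025 on day 28, 7.07%). At 18 µg no gene of the 9 passed, beside 7.31% and 9.02% of all genes for NRCWE-030 on days 1 and 28 and 5.13% and 8.88% for NRCWE-025. Except for Cxcl9 and Cxcl10 at 162 µg of NRCWE-030 on day 1, none of the 9 genes was called by limma in any dose comparison. The shares of all genes called on day 28 at 18, 54 and 162 µg were 0.117%, 0.0533% and 0.096% for NRCWE-030 and 0.0587%, 0.0267% and 0.016% for NRCWE-025. For NRCWE-025 on day 1 they were 0% at 18 and 54 µg and 0.213% at 162 µg. The tests over doses on day 28 called 0 of 9 genes for each material, beside 0.0267% of all genes for NRCWE-025 and 0.101% for NRCWE-030.

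**Figure D5:**
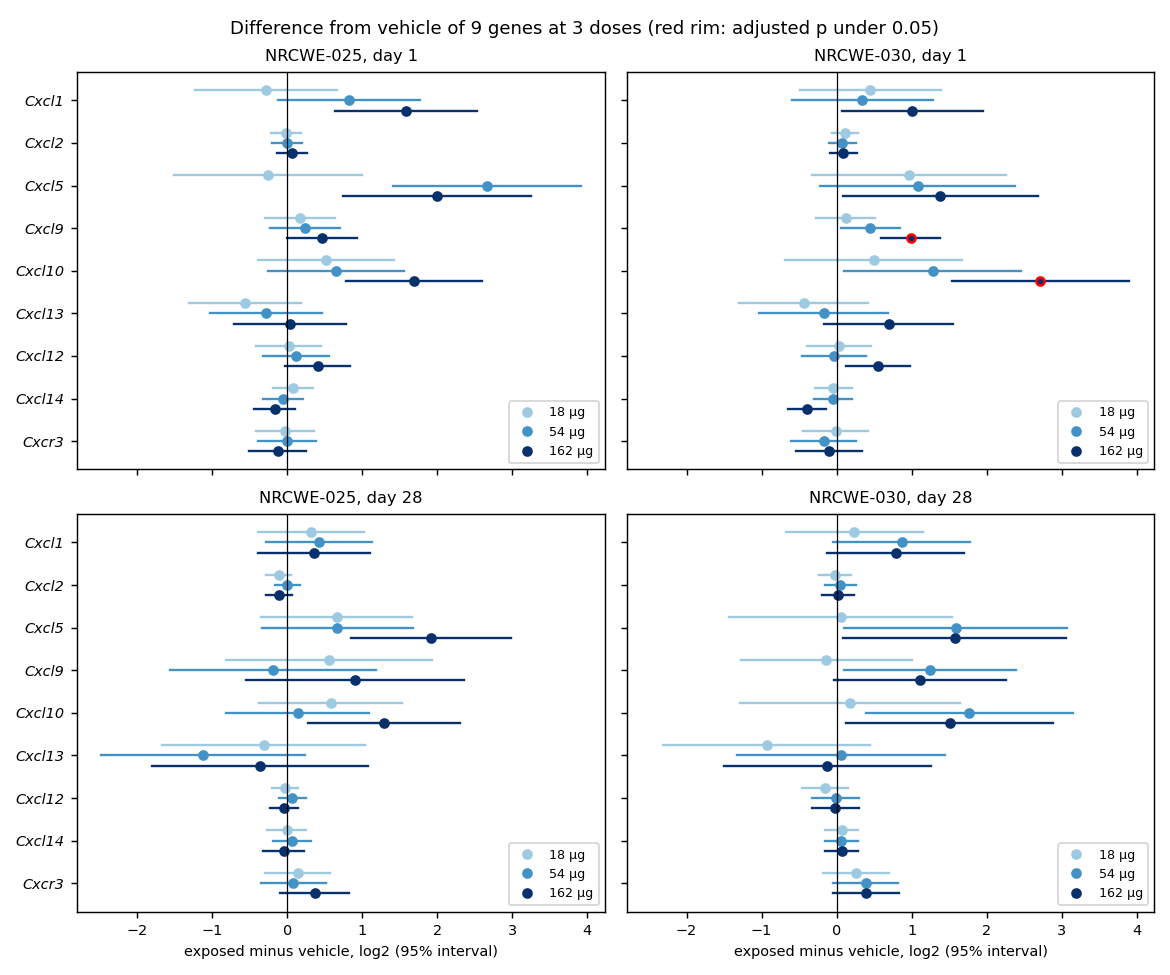
Differences of exposed from vehicle mice on the log2 scale (horizontal axes) for the 9 genes, in 1 panel for each material and day, with points and lines for the estimate and its 95% interval at 18, 54 and 162 µg (light to dark), and a red rim for an adjusted p under 0.05. The 2 rimmed points are Cxcl9 and Cxcl10 at 162 µg of NRCWE-030 on day 1, and the intervals of Cxcl5, Cxcl9 and Cxcl10 on day 28 are wide.

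The effect of 162 µg on day 1 was compared with that on day 28 in 1 fit of all 14 groups. limma called none of the 9 genes for either material, where 0.224% of all genes were called for NRCWE-030 and 0.0587% for NRCWE-025, and 2 and 0 of the 9 had an unadjusted p under 0.05, beside 7.67% and 10.5% of all genes. The Cxcl10 effect of NRCWE-030 was larger on day 1 by 1.21 (95% interval -0.53 to 2.94, adjusted p = 0.801). The Cxcl9 effect differed by -0.13 (-1.57 to 1.32, adjusted p = 0.982). For Cxcl14 and Cxcl12 the day 1 minus day 28 differences of the NRCWE-030 effect were -0.46 and 0.56, with unadjusted p of 0.0114 and 0.029 and adjusted p of 0.431 and 0.562. Between the vehicle mice of the 2 days limma called none of the 9 genes, beside 0.0373% of all genes, and 0 of the 9 had an unadjusted p under 0.05, beside 8.49%.

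The other chemokines and pathway genes were counted from lists, which were also chosen with earlier results of these data known. At 162 µg of NRCWE-030 on day 1, 8 of 20 measured CC, C and CX3C chemokines were called higher and none lower, with a median difference of 0.79. Over all genes 1.25% were called higher and 0.491% lower in this comparison. The counts of the other lists in this paragraph stand beside the same shares. Ccl7, Ccl4, Ccl2 and Ccl12, which draw monocytes and other leukocytes, rose by 2.43, 2.10, 2.09 and 1.76 on the log2 scale (adjusted p = 0.0153, 0.0231, 0.0197 and 0.00261). Ccl9, Ccl17, Ccl3 and Ccl19 rose by 1.403, 1.38, 1.28 and 0.93. Of 6 other CXC ligands, Cxcl3 rose by 0.56 (adjusted p = 0.0308), and none of 9 CXC and atypical receptors was called. Of 13 NF-kB inducers and feedback genes, Il1b, Il6 and Nfkbiz rose, by 1.27, 1.21 and 0.65. Of 22 interferon gamma pathway genes, Gbp6, Irgm1 and Gbp3 rose, by 0.81, 0.81 and 0.62, and none fell.

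After 162 µg of NRCWE-025 on day 1 only Ccl12 of the 20 CC, C and CX3C chemokines was called, higher by 1.45 (adjusted p = 0.0352), and no gene of the other 4 lists was. Of all genes, 0.213% were called in this comparison. The median differences of the lists were 0.49 for these chemokines, 0.41 for the NF-kB genes and 0.19 for the interferon gamma genes. On day 28 none of these lists held a called gene at 162 µg of either material. The shares of all genes called there were 0.096% for NRCWE-030 and 0.016% for NRCWE-025. Of 13 monocyte and macrophage genes, Msr1, Fcgr1 and Itgam rose at 162 µg of NRCWE-030 on day 1, by 0.98, 0.95 and 0.46. They were called beside 1.25% of all genes called higher, and no other gene of the list was called. The mean over that list ran from 1.78 to 2.08 in vehicle mice and from 1.92 to 2.23 in exposed mice, and the part of these cells in the chemokine values was not tested.

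Among all genes, those most like each member across the arrays were read from Pearson's r, as a description. Cxcl10 was most like Ccl4, Ccl12 and Ccl7, with r of 0.86 for each over 68 arrays. Cxcl9 was most like Icos, Ubd and Ifi204 (0.83, 0.83 and 0.82 over 69 arrays), and Cxcr3 like Cxcr6, Icos and Cd6 (0.83, 0.80 and 0.78). Cxcl5 was most like Il4i1, Slc26a4 and Noxo1 (0.82, 0.81 and 0.80), and Cxcl1 like Mthfd2, Gmfb and Bcl2l15 (0.76, 0.75 and 0.75). Cxcl13 was most like Ubd, Ngfr and C1qb (0.72, 0.71 and 0.70), Cxcl12 like Il6, Ccl7 and Ccl3 (0.77, 0.74 and 0.73) and Cxcl14 like Icam2, Cbr2 and Clec14a (0.75, 0.72 and 0.71). Cxcl2 was least like any gene, with r of 0.50 for Cep68, 0.50 for Trim37 and 0.46 for Olfr273.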

How the data were processed

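Lung RNA of 69 mice was hybridised with reference RNA on 2-colour Agilent arrays of 45018 spots, on 19 slides and 11 scan days. The authors scanned them with Agilent Feature Extraction and deposited spot intensity values, the scanner software's log10 ratios, and a table of log2 values after LOWESS within arrays. Main values were computed here from the median intensities. A local background marked as an outlier was set to the median background of its array, followed by normexp (offset 50) and loess within arrays. Spots marked as outliers were left out, and spots of a probe, then probes of a RefSeq symbol, were summarised by their median. A symbol was found for 66.7% of probes. Lung was in Cy5 on all arrays, with no dye swap, so a dye effect stays in the levels but cancels between groups. The Cxcl10 spot was left out on 1 array (18 µg of NRCWE-030 on day 28, replicate 2), and the fit dropped that value.

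Tests used limma 3.58.1 in R 4.3.3, two-sided, with Benjamini-Hochberg adjustment over 18749 genes and a call at an adjusted p under 0.05. Vehicle and 3 doses were fitted for each material and day, and all 14 groups together for contrasts of materials and of days. The fits were tested on simulated data. The number of arrays limits the precision.

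The genes and lists were chosen with earlier results of these data known. Named genes were the members, the 3 genes most like each by Pearson's r, and the 12 called genes of the pathway lists that changed most at the high dose of NRCWE-030 on day 1. The remaining called genes of small counts (Cxcl3, Nfkbiz, Gbp3 and markers) were named after their values were seen. Alternatives were local backgrounds as given, no background correction, the scanner's log10 ratios, the authors' log2 values, Aquantile between arrays, the brightest probe, a filter on dim genes, slide or scan day as a block, the ordinary F-test and leaving out each array. A fit of each Cxcl12 probe was added after seeing the data.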

Additional observations from a re-analysis of the deposited data

Results flagged for a closer look

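Of 126 sets of a gene in a group, 16 held 1 array far from the others of its group by Dixon's test, where chance alone gives about 6.3 (1 in 20). No difference of an effect between materials or between days was called by limma for these genes. The values are log2 of lung over reference.

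Replicate 4 of 162 µg of NRCWE-025 on day 1 stood apart for Cxcl9 (1.80, next 0.54), Cxcl10 (2.84, next 0.27), Cxcl13 (2.10) and Cxcr3 (2.15). Replicate 3 of 18 µg of NRCWE-025 on day 28 stood apart for Cxcl9 (4.39, next 0.61), Cxcl10 (1.305, next -0.79) and Cxcr3 (2.24). In both mice the ligands Cxcl9 and Cxcl10 and their receptor were high on the same array.

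Replicate 4 of the vehicle mice of day 28 stood apart for Cxcl13 (4.88, next 1.64) and Cxcl9 (1.31). Replicate 3 of 162 µg of NRCWE-025 on day 28 was low for Cxcl1 (-4.87) and Cxcl12 (-1.27).

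The other sets held a single gene each. Cxcl1 was at -0.20 in replicate 1 of 162 µg of NRCWE-025 on day 1, with the next at -2.17, and at -4.89 in replicate 4 of 18 µg of NRCWE-025 on day 1. Cxcl13 was at 3.18 in replicate 1 of 162 µg of NRCWE-030 on day 1. Cxcl12 was at -0.27 in replicate 1 of the vehicle mice of day 1. Cxcl14 was at 4.15 in replicate 4 of 162 µg of NRCWE-030 on day 28.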

How the results depend on the processing

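At 162 µg of NRCWE-030 on day 1, Cxcl9 and Cxcl10 were called with local backgrounds as given, no background correction, the scanner ratio, the authors' log2 values, dim genes left out and slide as a random block. The number of the 9 genes called was 0 with slide and 0 with scan day as a fixed block (Cxcl9 1.01 and 0.97, Cxcl10 3.20 and 2.77), with 8 and 9 residual degrees of freedom in place of 16. Leaving out each array gave counts of 1 to 2 and Cxcl10 differences of 2.41 to 3.20. All genes called there numbered 326, and 49 to 534 over the alternatives. Aquantile and the choice of the brightest probe leave the values of these 2 genes as they are by construction. The test over doses of NRCWE-030 on day 1 called 1 gene. It called 0 with the authors' log2 values, slide block, scan day block and ordinary F-test, 2 with dim genes left out, 2 with slide as a random block, and 0 to 2 with each array left out (all genes 181, range 70 to 463). For NRCWE-025 on day 1 it called 0, but 2 with slide as a random block and 0 to 1 with each array left out. For NRCWE-030 on day 28 it called 1 with slide and 1 with scan day as a block, and at 54 µg the counts were 2 and 1. The causes were not tested, and the part of the fewer degrees of freedom of the blocks was not tested either. Counts between materials, days and vehicle days were 0 under every alternative run, while all genes called ranged widely (vehicle days 7, but 1383 with slide as a block, NRCWE-025 days 11, but 206 with scan day as a block). For NRCWE-025 at 162 µg on day 1, 40 genes were called, and 0 to 173 over the alternatives, none of the 9 among them.

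Some changes at 162 µg turned sign. For NRCWE-025 on day 1 they were Cxcl2 (-0.10 slide, -0.0472 scan day), Cxcl13 (-0.0628 backgrounds as given, -0.0435 no background correction, -0.0492 authors' values, -0.24 to 0.43 with each array left out), Cxcl12 (-0.0702 brightest probe) and Cxcr3 (0.15 scanner ratio). On day 28 they were Cxcl12 (0.0031 scanner ratio, 0.0658 slide, 0.0658 scan day, -0.0837 to 0.0460 with each array left out), Cxcl13 (-0.73 to 0.41 with each array left out) and Cxcl14 (0.0386 no background correction, 0.0347 authors' values, 0.0064 slide, 0.0064 scan day, -0.15 to 0.0684 with each array left out). For NRCWE-030 on day 1 they were Cxcl12 (-0.18 brightest probe, but called at 0.84 with the scanner ratio and 1.28 with the NM_021704 probe) and Cxcr3 (0.0215 no background correction, 0.0336 scanner ratio, 0.000556 authors' values, -0.22 to 0.0058 with each array left out). On day 28 they were Cxcl2 (-0.0175 to 0.0550 with each array left out), Cxcl13 (0.11 slide as a random block, 0.77 slide, 0.75 scan day, -0.43 to 0.65 with each array left out), Cxcl12 (0.0215 scanner ratio, 0.0288 slide as a random block, 0.0916 slide, 0.0971 scan day, 0.0245 NM_021704 probe, -0.0817 to 0.0736 with each array left out) and Cxcl14 (-0.0701 slide, -0.0618 scan day). The causes were not tested. No paired analysis was possible because the replicate numbers follow the order of the samples and pair no mice.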
